A study of Mus musculus with 6 samples.

Results

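The circadian clock genes described here are 10 genes of the molecular clock or directly tied to it: Arntl, Clock, Npas2, Per1, Per2, Cry1, Nr1d1, Dbp, Nfil3 and Bhlhe40. They were chosen by gene symbol among the 18193 genes that the platform annotation pairs with probe sets of a single symbol. For each gene the probe set with the brightest average over the 6 arrays was used, and further probe sets of the clock genes are given beside it. The arrays held liver RNA of 3 mice with a conditional liver knockout of p14 (KO) and of 3 p14 WT control mice (WT), all male C57BL/6 mice of 6 weeks, with 1 Affymetrix array per mouse. p14 is the protein product of Lamtor2, a late endosomal adaptor and part of the Ragulator complex. The sources used here do not give the promoter that drives the recombinase, the deleted part of the gene or the time of day at which livers were taken.

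The clock of a cell is a feedback loop of transcription. BMAL1, the product of Arntl, pairs with CLOCK or its relative NPAS2 and binds E-boxes in the promoters of the Per and Cry genes, whose proteins return to block that pair. A second loop runs through Nr1d1, whose product REV-ERB-alpha represses Arntl, Npas2 and Nfil3 through response elements that it shares with the ROR receptors. Dbp, an activator, and Nfil3, a repressor, act on the same D-boxes, and Bhlhe40 (DEC1) represses E-box genes. In mouse liver most of these transcripts swing over the day, Arntl and Npas2 in opposite phase to Nr1d1 and Dbp, and many metabolic genes follow them.

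Promoters of 8 of the 10 genes were found in a RefSeq table of build GRCm38.p6, 12 promoters in all, each covering 250 bases before to 50 after a start site. Per2 and Bhlhe40 had none listed. Both strands were searched for the E-box (CACGTG), the related sequence CACGTT, the D-box (TTATGTAA or TTACGTAA), the cyclic AMP response element (TGACGTCA) and the REV-ERB/ROR element (ANTAGGTCA or ANTGGGTCA). An E-box lay in the Cry1 promoter and in 1 of the 2 Per1 promoters, and the element CACGTT in those of Cry1 and Nr1d1. A REV-ERB/ROR element lay in the Nfil3 promoter and in 1 of the 2 Arntl promoters. With a further A in front, a stricter form searched first, it was left in Arntl alone. None of the 12 promoters held the D-box or the cyclic AMP response element. Of all 32851 promoters in the table, 7.15% held the E-box, 4.68% CACGTT, 1.06% the D-box, 1.79% the cyclic AMP response element and 1.45% the REV-ERB/ROR element (0.435% in its stricter form). Matches did not overlap each other, and a match is a description of the letters only. The promoters of 3 genes are shown 5′ to 3′ with matches in capitals: Arntl for its low signal in every liver, and Cry1 and Nfil3 as the members that were higher in every KO liver.
Arntl (chr7:113207261-113207560, plus strand): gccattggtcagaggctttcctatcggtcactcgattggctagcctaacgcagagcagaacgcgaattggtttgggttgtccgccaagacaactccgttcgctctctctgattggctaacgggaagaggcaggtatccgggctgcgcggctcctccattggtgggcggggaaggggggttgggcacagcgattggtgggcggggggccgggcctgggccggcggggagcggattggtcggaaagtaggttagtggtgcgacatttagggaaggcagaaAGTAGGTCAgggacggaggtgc
Cry1 (chr10:85185005-85185304, minus strand): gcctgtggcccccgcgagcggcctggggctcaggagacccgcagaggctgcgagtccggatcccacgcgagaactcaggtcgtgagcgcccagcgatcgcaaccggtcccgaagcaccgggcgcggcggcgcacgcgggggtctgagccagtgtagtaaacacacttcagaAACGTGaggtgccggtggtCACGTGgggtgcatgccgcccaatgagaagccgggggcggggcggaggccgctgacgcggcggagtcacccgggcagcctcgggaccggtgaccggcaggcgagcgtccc
Nfil3 (chr13:52980990-52981289, minus strand): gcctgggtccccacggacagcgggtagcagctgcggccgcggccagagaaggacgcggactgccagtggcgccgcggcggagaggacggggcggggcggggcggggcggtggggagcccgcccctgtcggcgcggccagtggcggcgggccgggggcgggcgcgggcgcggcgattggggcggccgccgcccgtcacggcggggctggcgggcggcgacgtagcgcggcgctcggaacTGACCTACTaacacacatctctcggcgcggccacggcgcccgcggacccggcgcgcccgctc
In Arntl the capitals mark the REV-ERB/ROR element, which starts at base 29 of the transcript. In Cry1 they mark the reverse complement of CACGTT followed by the E-box, which start 79 and 60 bases before the start site. In Nfil3 they mark the REV-ERB/ROR element on the opposite strand, 12 bases before the start site.

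Values were the authors' GCRMA levels on a log2 scale, on which a difference of 1 is a doubling. A gene was tested where 3 or more of the 6 arrays, of any group, reached a level of 4. That left 10009 genes. KO was set against WT in limma, and calls were made where the p adjusted over all of them by Benjamini-Hochberg lay under 0.05. Of the 10 clock genes 8 were tested, and Arntl and Npas2 were not. Differences are KO minus WT throughout, and an exact permutation test over 3 against 3 arrays cannot go below p = 0.1.

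Lamtor2 measured 10.08, 10.19 and 10.11 in KO livers, against 11.32, 11.29 and 11.35 in WT livers (difference -1.19, limma adjusted p = 0.0104). By mean correlation over genes, KO 3 lay nearer to the WT arrays, at 0.987, than KO 1 and KO 2 did, at 0.977 and 0.981. With the other KO arrays it correlated at 0.986, against 0.988 and 0.989 for KO 1 and KO 2. The list mean of 6 acute phase genes was 13.90 and 13.83 on KO 1 and KO 2 and 10.68 on KO 3, against 10.27 to 11.12 in WT livers. WT 2 held skeletal muscle transcripts, with a mean of 11.48 over 5 muscle markers, against 2.59 to 2.64 in KO livers and 2.59 and 2.82 in the other WT livers. The 6 hepatocyte markers, among them Alb and Ttr, had list means of 15.85 to 15.91 in KO livers and 15.89 to 15.91 in WT livers. Of 4 cholangiocyte markers 3 lay below 4 on every array.

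None of the 8 tested clock genes was called in limma, where 17 of 10009 genes were (0.170%). At an unadjusted p under 0.05 there were 2 of the 8, Nfil3 higher and Bhlhe40 lower, beside 14.5% of all genes tested (4.32% higher and 10.1% lower). In 3 of the 8, Nfil3, Cry1 and Bhlhe40, the KO and WT arrays did not overlap, beside 20.5% of all genes in either direction. Both shares rest on 8 genes and so say little about the set. The median difference of the 8 genes was -0.04, equal to 2 decimals to that of all genes tested (-0.04), with 4 higher and 4 lower. Because whole liver was measured, fewer cells of a type and less RNA per cell cannot be told apart in any of these values.

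**Figure D1:**
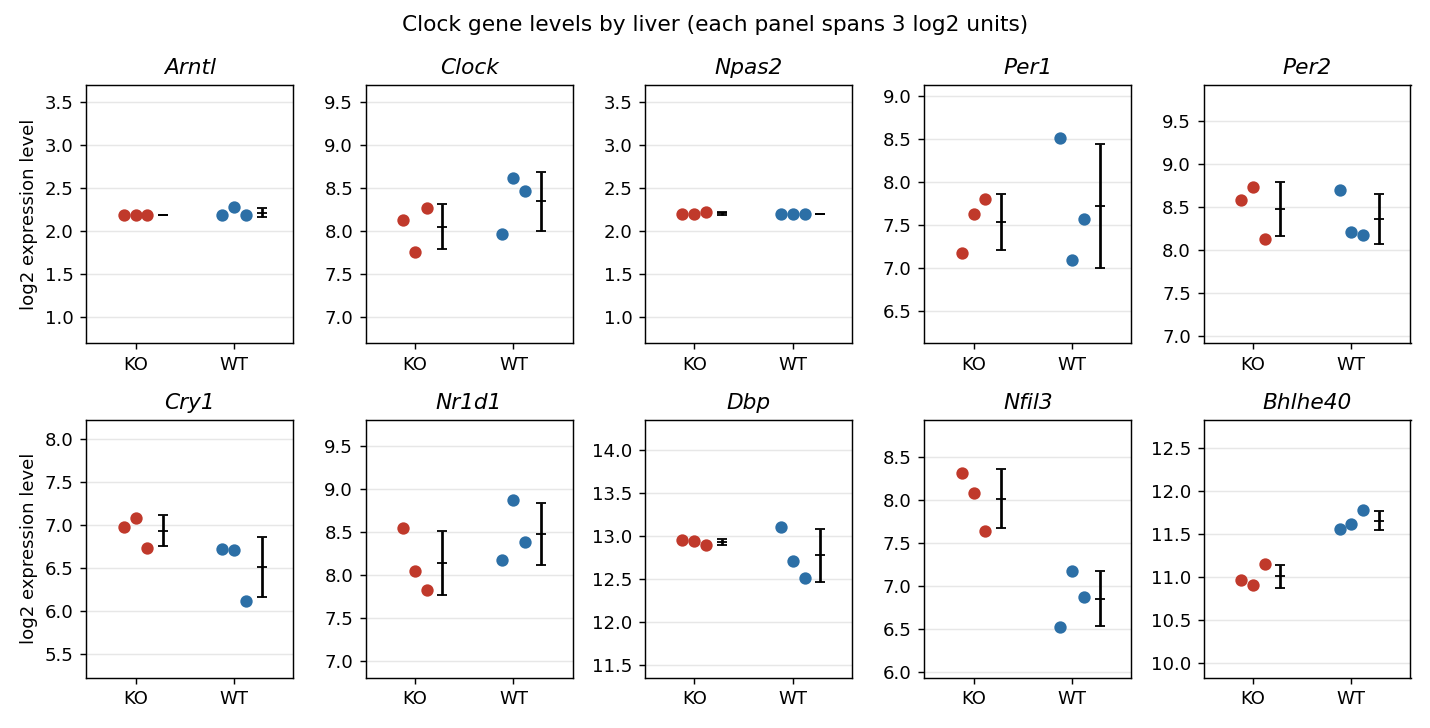
Log2 expression level (y axis) of the 10 clock genes in each of 3 KO (red, left) and 3 WT (blue, right) livers, points in the order of replicates 1 to 3, with the mean and SD in black beside each group. Each panel spans 3 log2 units around its gene's mean. Nfil3 and Cry1 lie higher and Bhlhe40 lower in every KO liver, and Arntl and Npas2 lie flat near 2.2.

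Arntl encodes BMAL1, the partner that CLOCK and NPAS2 need to bind DNA. Both of its probe sets lay at the lowest value of the table, 2.18, in 11 of 12 measurements. The remaining one was 2.28, on WT 2. Npas2 was as dim, with no value above 2.23 in either of its probe sets. No difference can be read for these 2 genes. GCRMA puts many dim probe sets at this value (28.9% of all values in the table), so a level there does not show that the transcript was absent.

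Clock, the activator that pairs with BMAL1, measured 8.13, 7.76 and 8.26 in KO livers, against 7.96, 8.61 and 8.47 in WT livers. The groups overlapped, with WT 1 inside the KO range. The difference was -0.30 with a 95% confidence interval from -0.83 to 0.24 (limma adjusted p = 0.536). It was -0.16 without WT 2, the highest liver. The other 3 Clock probe sets were also lower on average in KO, by -0.30, -0.59 and -0.16. One of them did not overlap between groups. It measured 6.30, 6.59 and 6.26 in KO livers and 6.66, 7.10 and 7.17 in WT livers, with a limma adjusted p of 0.272 where every probe set was tested.

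Rora, a nuclear receptor that activates Arntl, measured 10.44 ± 0.16 in KO and 10.38 ± 0.14 in WT livers (SD, n = 3 each). Its difference was 0.06 (limma adjusted p = 0.819). Of its 8 other probe sets 2 were too dim to be tested, and 5 gave differences from -0.22 to 0.25. The remaining one measured 9.63, 9.84 and 9.72 in KO livers, against 9.51, 9.53 and 9.24 in WT livers, a difference of 0.31 without overlap (limma adjusted p = 0.322, every probe set tested).

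The Per and Cry genes encode the repressors that close the loop. Per1, which also answers quickly to hormones, measured 7.18, 7.62 and 7.80 in KO livers, against 8.51, 7.09 and 7.57 in WT livers. WT 1 was the highest and WT 2 the lowest of all 6, so the WT livers enclosed the KO livers. The difference of -0.19 had an interval from -1.14 to 0.77, the widest among the 8 genes, and became 0.21 without WT 1.

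Per2 measured 8.58, 8.72 and 8.12 in KO livers, against 8.69, 8.21 and 8.17 in WT livers, with each group spread over about the same range. The difference was 0.12 (interval -0.41 to 0.65, limma adjusted p = 0.807). Its probe sets disagreed in sign. A further one gave 0.18, while the remaining one measured 7.06, 7.09 and 6.20 in KO livers and 7.51, 7.24 and 7.77 in WT livers, a difference of -0.72 without overlap (limma adjusted p = 0.338, every probe set tested). No direction can be given for Per2 from these arrays.

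Cry1, the cryptochrome whose promoter above holds an E-box, measured 6.98, 7.08 and 6.73 in KO livers, against 6.72, 6.71 and 6.11 in WT livers. All KO livers lay above all WT livers, but KO 3 cleared WT 1 by very little. The difference was 0.42 with an interval from -0.07 to 0.90, or 1.34-fold, and was not called (limma adjusted p = 0.384, exact permutation p = 0.1). It was 0.22 without WT 3, the lowest liver.

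Per3 and Cry2, the other members of these families, were not called either. Per3 measured 7.43 ± 0.57 in KO and 7.98 ± 0.20 in WT livers (SD, n = 3 each), and Cry2 9.06 ± 0.23 in KO and 8.99 ± 0.27 in WT livers. Per3 was lowest on KO 1, at 6.88. The Per3 probe sets bright enough to be tested also differed in sign, from -0.55 in the brightest to 0.32 in another. A further set, too dim to be tested, gave -1.19.

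**Figure D2:**
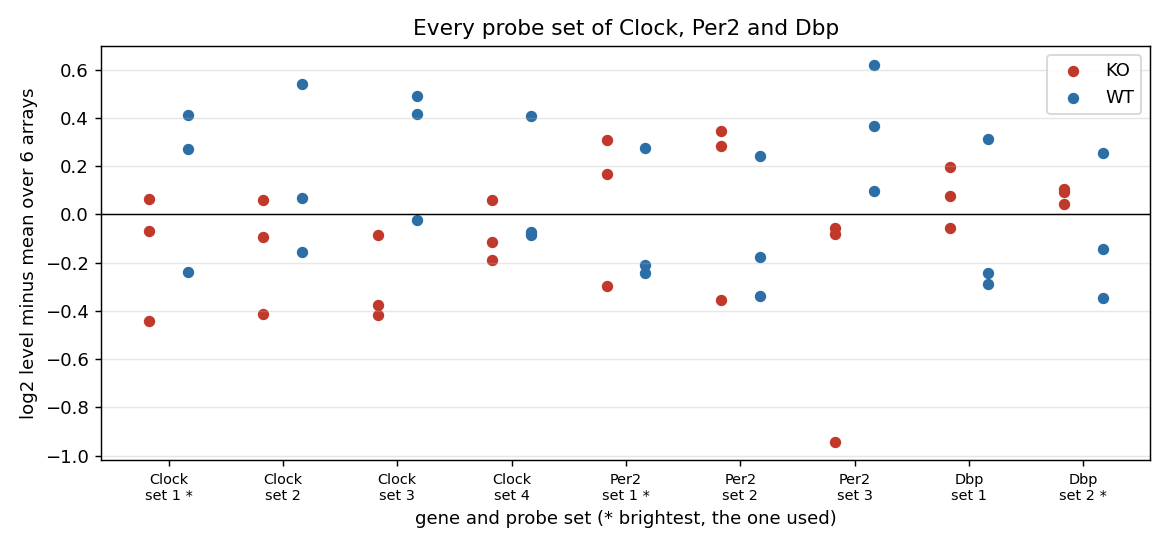
Log2 level minus the mean over 6 arrays (y axis) for every probe set of Clock, Per2 and Dbp, with 3 KO livers (red, left) and 3 WT livers (blue, right) in each column and an asterisk at the brightest set. The Clock sets have the same sign, with mean differences of -0.30, -0.30, -0.59 and -0.16, and the third Per2 set, at -0.72, runs against the other Per2 sets, at 0.12 and 0.18.

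Nr1d1, the heme-binding repressor of Arntl, measured 8.54, 8.04 and 7.83 in KO livers, against 8.17, 8.87 and 8.38 in WT livers. The groups overlapped, with KO 1 above WT 1 and WT 3. The difference was -0.34 (interval -0.97 to 0.29, limma adjusted p = 0.545). Without WT 2, the highest liver, the difference of Nr1d1 was -0.14. Nr1d2, its close relative with the same binding sites, was 12.32 ± 0.06 in KO and 12.23 ± 0.21 in WT livers (SD, n = 3 each), a difference of 0.09. Its other probe set measured 8.14, 8.30 and 8.18 in KO livers, against 7.85, 8.08 and 7.25 in WT livers. There every KO liver lay above every WT liver, with a difference of 0.48 (limma adjusted p = 0.372, every probe set tested).

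Dbp, the D-box activator and one of the most strongly rhythmic liver transcripts, measured 12.96, 12.94 and 12.89 in KO livers, against 13.11, 12.71 and 12.51 in WT livers. KO livers lay within 0.06 of each other and inside the range of WT livers. The difference was 0.16 with an interval from -0.23 to 0.55, that is 0.852-fold to 1.46-fold (limma adjusted p = 0.643). The other Dbp probe set gave 0.14. The SD was 0.03 in KO and 0.30 in WT livers for the brightest set, and 0.12 in KO and 0.33 in WT livers for the other, whose KO livers thus did not lie as close together.

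The relatives of Dbp that bind the same element, Tef and Hlf, gave differences of 0.00 and -0.27 in their brightest probe sets. The other Tef probe sets gave 0.32 and 0.50 and the other Hlf set 0.02, all with overlap between the groups. Tef measured 11.57 ± 0.23 in KO and 11.57 ± 0.30 in WT livers, and Hlf 9.92 ± 0.19 in KO and 10.19 ± 0.46 in WT livers (SD, n = 3 each). For Dbp, Tef and Hlf alike WT 1 was the highest of the WT livers, and KO 3 the lowest of the KO livers.

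Nfil3, which encodes E4BP4, the repressor that competes with DBP at D-boxes, had the largest difference of the 8 genes. It measured 8.31, 8.09 and 7.64 in KO livers, against 6.52, 7.17 and 6.87 in WT livers. Every KO liver lay above every WT liver, with KO 3 nearest to them. The KO mean was 2.23-fold the WT mean, a difference of 1.16 with an interval from 0.58 to 1.74. It ranked at place 151 of 10009 by p, and was not called (limma adjusted p = 0.194, exact permutation p = 0.1). A single probe set represents the gene, which spans positions 52967209 to 52982878 of chromosome 13 in GRCm38.p6.

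Set against Dbp in the same liver, the log2 ratio of Nfil3 to Dbp lay 0.78, 0.56 and 0.16 above its mean over all arrays in KO 1, KO 2 and KO 3. In WT 1, WT 2 and WT 3 the ratio lay at -1.16, -0.12 and -0.22. Every KO liver lay above every WT liver in this ratio. Dbp was itself 0.16 higher on average in KO, so the groups differed by less in the ratio than in Nfil3 alone. WT 1 held both the lowest Nfil3 and the highest Dbp.

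Bhlhe40 (DEC1), a repressor of E-box genes that also responds to hypoxia and growth signals, had the smallest p of the 8 genes. It measured 10.96, 10.91 and 11.16 in KO livers, against 11.56, 11.62 and 11.78 in WT livers. Every KO liver lay below every WT liver, and the gap between the groups exceeded the range within either one. KO livers held 63.9% of the WT level, a difference of -0.65 with an interval from -0.89 to -0.40. It ranked at place 56 of 10009 by p and was not called with all 6 arrays (limma adjusted p = 0.125, exact permutation p = 0.1). Without KO 3 it was called, at -0.72 (limma adjusted p = 0.0493), in a fit that called 140 genes (1.40%). The gene lies on chromosome 6, at positions 108660629 to 108666925 in GRCm38.p6. Bhlhe41 (DEC2), its close relative, lay at the lowest value on every array.

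**Figure D3:**
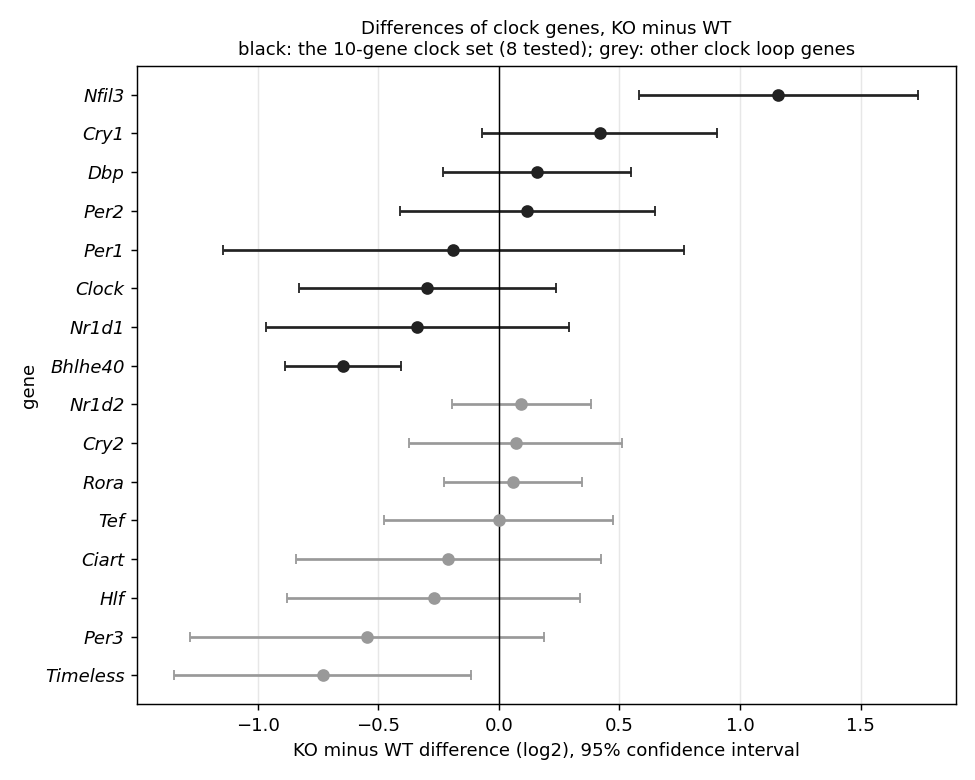
KO minus WT difference on the log2 scale (x axis) with its 95% confidence interval from limma, for the 8 tested clock genes (black) and 8 other clock loop genes (grey). Among the black points the intervals of Nfil3, 0.58 to 1.74, and Bhlhe40, -0.89 to -0.40, do not include 0. These intervals are not adjusted for the number of genes.

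Other measures moved between the same livers as Nfil3 and Bhlhe40. Of 8 Kupffer cell and macrophage markers all 8 were lower in KO, 0 of them called, with a median difference of -0.89. An unadjusted p under 0.05 was found for 7 of the 8, beside 10.1% of all genes tested that were lower. In 6 of the 8 the groups did not overlap, beside 20.5% of all genes in either direction. The summed signal of the 8 markers on a linear scale ran from 8063 to 15802 in KO livers and from 18589 to 19613 in WT livers. None of the 8 lay at the lowest value on every array. Of 5 liver endothelial markers 4 were lower and 1, Lyve1, was called, with summed signals of 4707 to 6498 in KO and 5514 to 7042 in WT livers. Of 3 measured proliferation markers all 3 were lower in KO and 1, Top2a, was called, with summed signals of 62.4 to 153 in KO and 447 to 564 in WT livers. Over all 10009 genes tested 0.170% were called, and 5848 were lower in KO. The 18S rRNA controls averaged 8.95 in KO and 8.15 in WT livers. The part of these in either result was not tested.

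Among the KO livers Nfil3 followed the order of the acute phase list, highest on KO 1 and lowest on KO 3. The list means of KO 1 and KO 2 were close, at 13.90 and 13.83. Among the WT livers WT 1 had the highest list mean, at 11.12, and the lowest Nfil3, at 6.52. KO 3, with an acute phase list mean of 10.68 inside the WT range, measured 7.64 for Nfil3, and the highest WT liver 7.17. The single genes of the list did not all lie in that range. On KO 3 Saa1 and Saa2 lay above every WT liver, Lcn2 inside the WT range, and Saa3, Orm2 and Hp below every WT liver. For Bhlhe40 KO 3 measured 11.16, below the lowest WT liver at 11.56. A link of the acute phase genes to Nfil3 or Bhlhe40 was not tested. Without KO 3, Nfil3 differed by 1.35 and was not called (limma adjusted p = 0.0759). Without WT 2, the liver with muscle transcripts, the difference was 1.32 for Nfil3 and -0.66 for Bhlhe40.

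**Figure D4:**
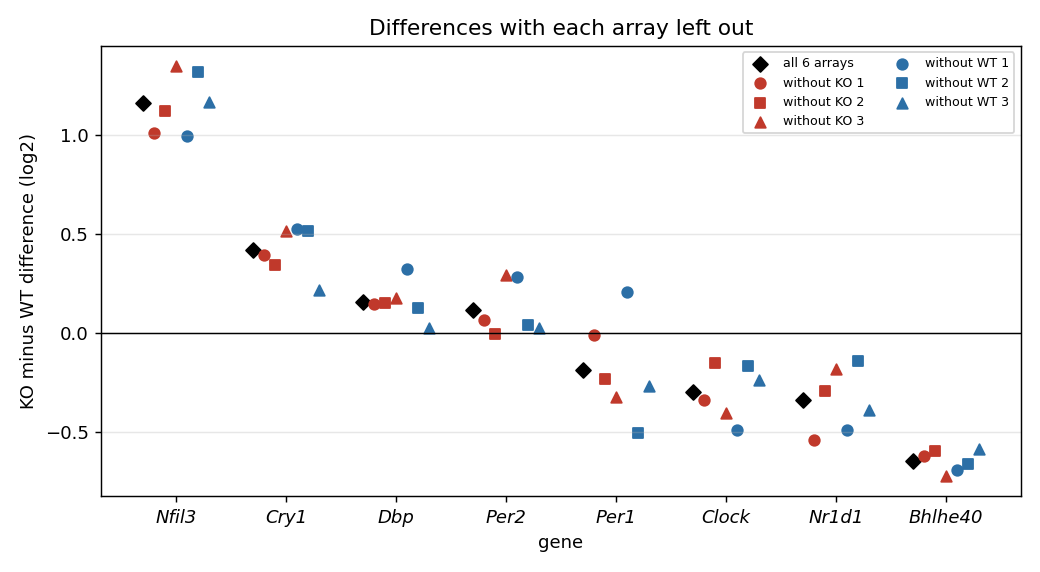
KO minus WT difference on the log2 scale (y axis) of the 8 tested clock genes with all 6 arrays (black diamonds) and with each KO (red) or WT (blue) array left out. Nfil3 stays between 0.99 and 1.35 and Bhlhe40 between -0.72 and -0.59, while Per1 and Per2 lie on both sides of 0.

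The wider clock machinery was read from 2 further lists. Of 10 other clock loop genes 8 were tested, 4 higher and 4 lower with a median of -0.10. In limma 0 were called, and 1 had an unadjusted p under 0.05, beside 14.5% of all genes tested. That gene was Timeless, which acts mainly in DNA replication in mammals. It measured 4.33 ± 0.49 in KO and 5.06 ± 0.12 in WT livers (SD, n = 3 each, limma adjusted p = 0.304). Ciart, a repressor of CLOCK and BMAL1, differed by -0.21. Of 9 genes that control the turnover of clock proteins 7 were tested and 0 were called in limma, or had an unadjusted p under 0.05. The smallest p values belonged to Fbxw11, a ubiquitin ligase subunit, with a difference of 0.11 (unadjusted p = 0.152), and Csnk1d, a kinase that marks PER proteins, with a difference of 0.16 (unadjusted p = 0.237).

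Genes that the liver clock drives were read from a list of 15, of which 13 were tested, 6 higher and 7 lower with a median of -0.06. None was called in limma. An unadjusted p under 0.05 was found for 4 of the 13, 3 lower and 1 higher, beside 14.5% of all genes tested (10.1% lower and 4.32% higher). The same 4 genes, Cyp7a1, Avpr1a, Cdkn1a and Nampt, were those of the 13 whose groups did not overlap, beside 20.5% of all genes. Cyp7a1, the rate-limiting enzyme of bile acid synthesis and a gene with D-box control, measured 12.89, 13.07 and 12.87 in KO livers, against 13.94, 13.25 and 13.65 in WT livers. All KO livers lay below all WT livers, with a difference of -0.67 (interval -1.13 to -0.22, limma adjusted p = 0.25). Avpr1a, a vasopressin receptor, differed by -0.49 and Cdkn1a, the cell cycle inhibitor p21, by -1.07, again without overlap (limma adjusted p = 0.22 and 0.243). Nampt, the rate-limiting enzyme of NAD salvage, was 10.89 ± 0.06 in KO and 10.48 ± 0.23 in WT livers (SD, n = 3 each), with a difference of 0.41 (limma adjusted p = 0.286).

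Several other output genes overlapped between the groups. Wee1, a cell cycle kinase under E-box control, differed by 0.16, Noct, a rhythmic phosphatase, by -0.46 and Alas1, the first enzyme of heme synthesis, by -0.15. Rgs16, a G protein regulator, ranged from 9.74 to 11.54 in KO livers and from 9.73 to 12.21 in WT livers, so that mice of 1 group differed by more than the group means did. Elovl3, a fatty acid elongase that was too dim to be tested, measured 7.63 on KO 1, 4.11 on KO 2 and 3.62 on KO 3, against 3.05, 3.09 and 3.05 in WT livers. All KO livers lay above all WT livers, and KO 1 stood far above the rest.

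Within both groups some livers were the highest or lowest more often over the clock genes than over all genes tested. KO 2 was the highest KO liver for 9 of the 16 tested clock genes and other loop genes and for 8 of the 13 output genes, beside 33.6% of all genes tested. KO 3 was the lowest KO liver for 10 of the 16 and 6 of the 13, beside 33.4% of all genes. WT 1 was the highest WT liver for 9 of the 16 and 9 of the 13, beside 34.5% of all genes tested. Among them were Per1, Per2, Dbp, Tef, Hlf, Ciart, Wee1 and Rgs16. WT 1 was also the lowest WT liver for 6 of the 16, among them Clock, Nr1d1, Nfil3 and Bhlhe40. It was the lowest for 3 of the 13, beside 33.9% of all genes. WT 3 was the lowest WT liver for 7 of the 16 and 7 of the 13, beside 25.1% of all genes. Many of these genes are known to swing over the day, some in opposite phase to others, so they are not independent of each other, and no test was made. The SD was smaller in KO than in WT livers for 9 of the 16 genes, beside 43.9% of all genes tested. The median SD over the 16 genes was 0.23 in KO and 0.30 in WT livers, against 0.14 in KO and 0.12 in WT livers over all genes tested.

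**Figure D5:**
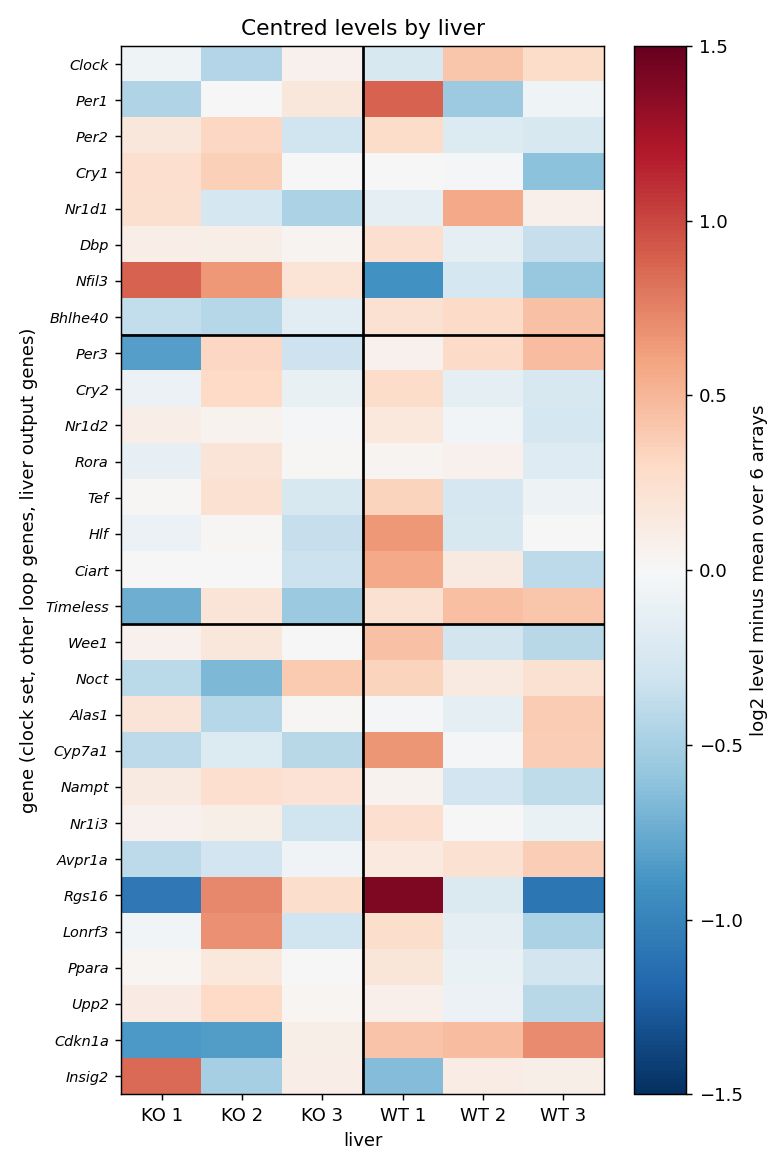
Log2 level minus the gene's mean over 6 arrays (colour) in 3 KO livers (left) and 3 WT livers (right), for the tested clock genes, other clock loop genes and liver output genes (blocks from top to bottom). Nfil3 is red in KO and blue in WT livers, Bhlhe40 the reverse, and WT 1 is red for Per1, Hlf, Ciart, Wee1 and Rgs16.

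Signals that set the phase of the liver clock were looked at through genes that answer to them. Of 8 glucocorticoid responsive genes 0 were called in limma, with a median of -0.21 and 0 at an unadjusted p under 0.05. The smallest p values belonged to Klf9, a transcriptional regulator, with a difference of -0.20 (unadjusted p = 0.0917), and Tat, a tyrosine-degrading liver enzyme, with a difference of 0.24 (unadjusted p = 0.142). Of 7 tested temperature responsive genes 0 were called and 1, Dnajb1, had an unadjusted p under 0.05, beside 14.5% of all genes tested. Dnajb1, a heat shock cochaperone, differed by -0.63 and Cirbp, a cold-inducible RNA-binding protein, by 0.39. Neither overlapped between the groups (limma adjusted p = 0.304 and 0.345). Of 7 tested feeding responsive genes 0 were called and 2, both higher, had an unadjusted p under 0.05, beside 14.5% of all genes tested (4.32% higher). G6pc, the last enzyme of glucose release, was 13.68 ± 0.24 in KO and 12.45 ± 0.83 in WT livers (SD, n = 3 each, limma adjusted p = 0.304). Angptl4, an inhibitor of lipoprotein lipase, was 0.50 higher (limma adjusted p = 0.0655).

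The genes most like Dbp over the 6 livers were Bcat2, Ncoa3, Slc25a23, Ppara and Abcg8. Likeness was the root mean square difference between centred log2 levels, which ran from 0.052 to 0.065 for these 5. Ppara, the fatty acid sensing receptor, measured 13.21, 13.34 and 13.19 in KO livers, against 13.37, 13.08 and 12.90 in WT livers. Like Dbp it was highest on WT 1 and lowest on WT 3. For Nfil3 the nearest were Ttc39c, Rtn4rl1, Ror1, C9 and Efna1, at 0.170 to 0.225, and for Bhlhe40 Serpinb6a, Ier5, Mapkapk2, Ezh2 and Nupl1, at 0.063 to 0.083. These 2 sets were added after the values of Nfil3 and Bhlhe40 were seen. Arntl was left out of this search, since a gene at the lowest value has no pattern to match.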

How the data were processed

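Liver RNA of 3 KO and 3 WT mice was measured on 1 Affymetrix array per mouse. The authors deposited a log2 level for each probe set. Per the submitters' processing notes it was computed in R 2.9.1 with GCRMA 2.16.0. The log2 scale was inferred from the values, and the settings used are not given in the sources used here. GCRMA subtracts background and sets dim probe sets to a common lowest value, so differences among them carry little information.

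Of 45101 probe sets 34945 had a single gene symbol. Tests used limma 3.58.1 in R 4.3.3 (lmFit, eBayes, two-sided, no covariates) over 10009 genes. Symbols and Entrez identifiers of all 10 clock genes matched the RefSeq table of GRCm38.p6, which also gave promoters and positions. The fit was tested on simulated data, and figures were drawn with matplotlib 3.10.9. Precision is limited by how many arrays there are. The labels number the mice as biological replicates.

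The clock genes, the other gene lists, the tests and the 17 alternatives were chosen with earlier results of these data known, so the lists are not independent evidence. Named genes were the 10 clock genes, Lamtor2, called or smallest-p genes of each other list, any gene of the loop and output lists, and the 5 genes nearest to Dbp. Others are said to be chosen later.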

Additional observations from a re-analysis of the deposited data

How the results depend on the processing

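The 8 tested clock genes were recomputed under 17 alternatives, 136 values in all, of which 1 was called and 4 had the other sign. Bhlhe40 was called without KO 3 (-0.72, limma adjusted p = 0.0493), so the number of clock genes called ranged from 0 to 1 with each array left out, and was 0 under every other alternative. Its adjusted p ran from 0.0493 to 0.366 over the alternatives and that of Nfil3 from 0.0759 to 0.483. Differences lay between -0.74 and -0.58 for Bhlhe40 and between 0.99 and 1.50 for Nfil3. With each array left out, Per1 ran from -0.51 to 0.21, turning sign without WT 1, and Per2 from -0.0070 to 0.30, turning sign without KO 2. The sign also turned for Per2 with the mean of its probe sets (-0.14), and for Nr1d1 (0.016) when KO 3 and WT 2 were dropped together, an alternative chosen after seeing the data. The cause was not tested.

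Of all genes tested 17 were called. The number was between 1 and 140 with each array left out, the 140 being without KO 3 and 1 each without KO 2, WT 1 or WT 2, and 3 when KO 3 and WT 2 were dropped together. It was 3 with no filter on low values, which tested 18193 genes. With the replicate number as a block it was 0 in limma, with 1235 genes at an unadjusted p under 0.05. Same-numbered KO and WT arrays had deviations from their group means that correlated at -0.14 to -0.08. With 3 arrays a group, this cannot decide whether the numbers pair the mice. No clock gene was called with or without the block. With it, 3 of the 8 tested clock genes had an unadjusted p under 0.05, against 1235 of all 10009 genes tested. They were Cry1 (limma unadjusted p = 0.0189), Nfil3 and Bhlhe40. With 3 arrays a group, the 95% intervals of all 8 tested clock genes reached beyond 0.5 on the log2 scale on at least 1 side. Differences somewhat larger than 0.5 are thus not excluded on that side for any of them. On the other side they can be, as for Dbp and Cry1, whose intervals ended at -0.23 and -0.07.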
